A study of Mus musculus with 6 samples.

Results

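The interferon-inducible GTPases of the GBP and IRG families were examined in osteoclast precursors (OCPs) that had or lacked the long noncoding RNA lincRNA-EPS. The 10 members, *Gbp2*, *Gbp3*, *Gbp5*, *Gbp7*, *Irgm1*, *Irgm2*, *Igtp*, *Iigp1*, *Tgtp2* and *Ifi47*, were taken by name from a table of 57180 genes, and all 10 had a row. OCPs are macrophages on the way to osteoclasts, the cells that resorb bone. They came from bone marrow-derived macrophages of WT and *lincRNA-EPS*-/- (KO) mice, with 3 libraries per genotype and no other allele, line or clone named. The study names C57BL/6 as the background of its mice, and the sources used here give no age for the donors of these cultures and the labels do not say whether libraries of 1 genotype came from separate animals. The study describes its replicates in general as single mice or independent cultures, and a p-value here measures the spread between libraries, which may in part be technical. All 6 cultures received M-CSF at 40 ng/ml for 24 h and then also RANKL, the cytokine that starts osteoclast differentiation, at 40 ng/ml for 48 h. The sources name no interferon or lipopolysaccharide in these cultures before the RNA was taken.

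Guanylate-binding proteins (GBPs) and immunity-related GTPases (IRGs) are large GTP-splitting enzymes that a cell makes after interferon. They assemble on the membranes of vacuoles that hold parasites or bacteria, break those membranes, and expose microbial products to inflammasomes. Among the IRGs, *Irgm1*, *Irgm2* and *Igtp* encode regulators that sit on the membranes of the cell itself and hold the effectors inactive there. *Iigp1*, *Tgtp2* and *Ifi47* encode effectors that load onto the vacuole. Interferon gamma reaches these genes through a promoter sequence called the gamma-activated site (GAS) and through the factor IRF1. Type I interferon reaches them through the interferon-stimulated response element (ISRE), where STAT2 and IRF9 act. Macrophages keep a low level of many of these transcripts without added interferon, and interferons restrain osteoclast formation.

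GAS and the ISRE are short sequences, so the bases before the RefSeq start are printed for 7 of the members. The RefSeq table of build GRCm38.p6 holds a window of 250 bases before and 50 bases after the start for 9 of the 10 members, all except *Iigp1*, and a further window for another start of *Gbp3*. GAS was searched as TTCNNNGAA and the ISRE core as GAAA, any 2 bases, GAAA, each on both strands, and matches that overlap were both kept. A match is a stretch of letters and was not shown to be bound here. The first 3 promoters, of *Igtp* (chr11:58199446-58199555, plus strand), *Irgm2* (chr11:58214867-58214976, plus strand) and *Tgtp2* (chr11:49064213-49064322, minus strand), are shown because GAS is followed by an ISRE core at the same spacing in each. That of *Gbp7* (chr3:142530226-142530335, plus strand) is shown for its pair of GAS matches within the 110 bases printed. Each runs 5′ to 3′ on the strand of the gene and ends at the last base before the start, and capitals mark the matches.
Igtp: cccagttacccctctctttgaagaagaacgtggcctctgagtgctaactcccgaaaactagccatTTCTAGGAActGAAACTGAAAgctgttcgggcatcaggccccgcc
Irgm2: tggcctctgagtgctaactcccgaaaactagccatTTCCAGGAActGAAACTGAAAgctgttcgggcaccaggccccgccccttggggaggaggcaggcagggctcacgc
Tgtp2: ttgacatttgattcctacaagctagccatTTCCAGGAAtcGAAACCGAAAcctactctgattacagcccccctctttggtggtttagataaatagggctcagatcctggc
Gbp7: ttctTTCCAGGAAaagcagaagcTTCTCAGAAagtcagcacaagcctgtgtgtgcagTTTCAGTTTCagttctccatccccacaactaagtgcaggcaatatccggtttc

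The other 3 promoters shown hold an ISRE core and no GAS. Since exons of GENCODE release M21 reach into the 110 bases before the RefSeq start of *Gbp2*, *Gbp3* and *Irgm1*, only 30 bases around the match are printed for these, at chr3:142620594-142620623 (plus strand), chr3:142559992-142560021 (plus strand) and chr11:48871428-48871457 (minus strand).
Gbp2: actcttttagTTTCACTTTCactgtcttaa
Gbp3: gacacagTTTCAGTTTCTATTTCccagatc
Irgm1: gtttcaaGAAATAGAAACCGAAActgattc

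An ISRE core was found for 8 of the 9 members with a window, all except *Ifi47*, and GAS for 5 of them, *Gbp5*, *Gbp7*, *Tgtp2*, *Igtp* and *Irgm2*. Over the 32851 windows of that length in the table, 3.44% held the ISRE core, 8.30% held GAS and 0.454% held both. In *Igtp*, *Irgm2* and *Tgtp2*, GAS began 45, 75 and 81 bases before the start, and the ISRE core began 11 bases further on in each. That arrangement was found in 5 windows of the whole table. The other 2 belonged to *Tgtp1*, a near-identical copy of *Tgtp2*, and to *Gm12185*, whose exons overlap those of *Tgtp1*, and since all 5 lie in IRG clusters of chromosome 11 they are not independent occurrences. The 4 GBP members carried the ISRE core on the opposite strand, at 59 bases before the start in *Gbp2*, 45 and 39 in *Gbp3*, whose other window held no match, 165 in *Gbp5* and 53 in *Gbp7*. In *Irgm1*, 2 overlapping ISRE cores began 30 and 24 bases before the start.

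**Figure D1:**
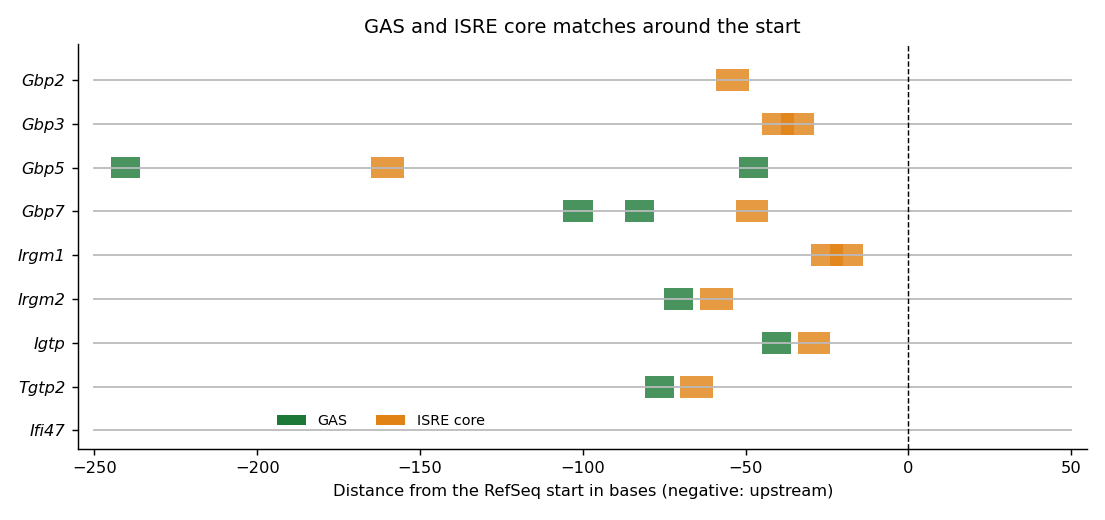
Matches to GAS and to the ISRE core around the RefSeq start of 9 members, with distance from the start in bases on the horizontal axis and 1 gray line of 300 bases per member. Of the 2 windows of *Gbp3*, the one with matches is drawn. GAS precedes the ISRE core by 11 bases in *Irgm2*, *Igtp* and *Tgtp2*, *Irgm1*, *Gbp2* and *Gbp3* hold only ISRE cores, and the window of *Ifi47* holds no match.

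The libraries held between 17757351 and 19998611 estimated counts, so 3 counts, the smallest number taken as measured, stood for 0.150 to 0.173 CPM, the unit of counts scaled to a common library size. The targeted transcript checked the labels: lincRNA-EPS, listed as *Ttc39aos1*, was counted 20, 37 and 41 times in WT replicates 1, 2 and 3 and 0 times in each KO library. Ribosomal RNA took 2.71% of the counts of KO replicate 2 and 0.202% to 0.576% of the others. Across 13176 genes with a known GC content, the log2 fold change of KO over WT correlated with GC content at r = -0.51, so that GC-poor genes tended to higher values in KO, and GC-corrected values are given beside part of the results. The macrophage markers summed to 16400 to 17500 CPM in WT and 14800 to 17600 CPM in KO, and the 10 osteoclast markers to 5110 to 5520 and 6840 to 7270 CPM, and no marker of either list was at 0 in all libraries. *Lyz2* made up most of the macrophage sum. By their fitted values all 6 macrophage markers were lower in KO, 3 of them at an unadjusted p under 0.05, and 5 of the 6 were lower with GC correction. Of the 10 osteoclast markers 9 were higher, 6 of them at that p, under which 13.2% of all genes tested were lower and 13.0% higher. The 11 neutrophil markers summed to 1350 to 1530 CPM in WT and 1780 to 2150 CPM in KO, with *Ly6g* at or near 0, and the 9 T and NK cell markers to 7.62 to 8.59 and 6.62 to 8.86 CPM, with *Ifng* at 0 in all 6 libraries. The 5 B cell markers summed to 6.56 to 7.57 and 7.33 to 9.20 CPM, and the 6 dendritic cell markers to 13.3 to 17.2 and 18.5 to 20.7 CPM. The part of these other cells in the levels of the GTPases was not tested.

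Of the 10 members, 9 were measured at low levels in both genotypes and *Iigp1* was at the limit of detection, and none was called different between KO and WT. With edgeR's quasi-likelihood test and limits set at 0.01 for the adjusted p-value and 1.3 for the fold change, 0 of the 9 members tested passed, where 0.00745% of the 13428 genes tested did, that is 1 gene. DESeq2 and limma-voom also called 0 members, where DESeq2 called 0.961% of the genes it tested. At an unadjusted p under 0.05, 1 member was lower in KO, where 13.2% of all genes were, and 0 were higher, where 13.0% were. *Iigp1* was not tested, since its counts did not pass the filter. In a bulk culture, fewer cells that make a transcript and less of it per cell cannot be told apart.

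Summed over the 10 members, the level was 79.8, 78.5 and 85.1 CPM in WT replicates 1, 2 and 3 and 77.7, 79.7 and 90.1 CPM in KO replicates 1, 2 and 3, with means of 81.1 ± 3.46 and 82.5 ± 6.64 CPM (SD, n = 3 each). The genotypes overlapped, and the ratio of the means was 1.02. The 4 GBP members summed to 23.8 ± 1.36 CPM in WT and 25.0 ± 2.03 in KO, and the 6 IRG members to 57.4 ± 3.27 and 57.5 ± 5.31 (SD, n = 3 each). Of the 9 members tested, 5 had a higher and 4 a lower fitted level in KO, and their median log2 fold change was 0.0066, beside 0.0091 over all genes tested. After GC correction 3 were higher and 6 lower, and the median was -0.15, beside -0.0054 over all genes.

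*Gbp2*, whose product is recruited to bacterial and parasite vacuoles, was the single member without overlap between WT and KO libraries. It lies at chr3:142620602-142638008 (GRCm38, GENCODE M21). Its level was 3.91, 4.0 and 3.78 CPM in WT replicates 1, 2 and 3 and 2.29, 3.11 and 3.06 CPM in KO replicates 1, 2 and 3. Every KO library was below every WT library, and KO replicate 1 was the lowest. The WT mean was 3.90 ± 0.109 CPM and the KO mean 2.82 ± 0.456 CPM (SD, n = 3 each), from 72 to 78 counts per library in WT and 44 to 60 in KO. The log2 fold change was -0.47 (SE 0.18, 95% interval -0.88 to -0.052), with an adjusted p of 0.164 in edgeR and 0.237 in DESeq2. The unadjusted p was 0.0316 in edgeR, which failed the correction over all genes, and 0.0724 in DESeq2. Without KO replicate 1 the unadjusted p was 0.114 in edgeR. Groups that did not overlap with KO lower made up 18.8% of all genes tested, and with KO higher 16.9%, against 1 and 0 of the 9 members. With GC correction the log2 fold change was -0.56 (SE 0.17) with an adjusted p of 0.0986 in edgeR, and *Gbp2* was again the single member under an unadjusted p of 0.05 with KO lower, where 13.6% of all genes were.

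The 3 other GBP members lie beside *Gbp2* on chromosome 3, and their genotypes overlapped. *Gbp7*, the most abundant GBP per length, was at 15.0, 12.0 and 13.6 CPM in WT and 16.7, 12.8 and 16.9 CPM in KO. The lowest KO library lay within the WT range and the other two above it. The log2 fold change was 0.19 (SE 0.15, 95% interval -0.15 to 0.53, adjusted p = 0.430 in edgeR), and it turned to -0.038 with GC correction. At 41.7% GC, *Gbp7* was the most GC-poor of the members tested, and some of its exons overlap those of *Gm43802* on the same strand.

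*Gbp3*, next to *Gbp7* and sharing 6.9% of its 31-base words with it, was at 4.86, 4.32 and 5.35 CPM in WT and 4.63, 5.98 and 5.45 CPM in KO. KO over WT gave a log2 fold change of 0.14 (SE 0.17, 95% interval -0.24 to 0.52, adjusted p = 0.602 in edgeR), which was 0.031 with GC correction. Its genotypes overlapped, with KO replicates 2 and 3 above all of WT. *Gbp5*, which promotes assembly of the NLRP3 inflammasome, was at 1.25, 1.97 and 1.26 CPM in WT and 1.46, 1.04 and 1.53 CPM in KO. WT replicate 2 stood above the other 5 libraries. The log2 fold change was -0.14 with a wide 95% interval of -0.79 to 0.51 (SE 0.29, adjusted p = 0.768 in edgeR), from 18 to 35.65 estimated counts per library, and it turned to 0.10 without WT replicate 2 and to 0.0048 without KO replicate 2.

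The 3 regulatory IRGs did not separate the genotypes. *Irgm1*, which protects the membranes of the cell from the effector IRGs, was at 23.1, 25.1 and 27.7 CPM in WT and 21.9, 22.2 and 27.9 CPM in KO. KO replicate 3 was just above the highest WT library, and the other KO libraries were below all of WT. With 386 to 548 counts per library it was the member with the most reads, and its log2 fold change of -0.075 had a 95% interval of -0.38 to 0.23 (SE 0.13, adjusted p = 0.734 in edgeR), or 0.77 to 1.17 as a ratio of KO to WT. With GC correction it was -0.20 (SE 0.10, 95% interval -0.43 to 0.027, adjusted p = 0.242 in edgeR).

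*Irgm2*, a regulator that also restrains the caspase-11 response to bacterial lipopolysaccharide, was at 8.98, 8.48 and 9.45 CPM in WT and 7.71, 7.02 and 9.37 CPM in KO. KO replicate 3 lay inside the WT range and the other two below it. This gave a log2 fold change of -0.16 (SE 0.15, 95% interval -0.50 to 0.18, adjusted p = 0.510 in edgeR), and with GC correction it was -0.26 (adjusted p = 0.213 in edgeR). *Igtp*, also known as Irgm3, was at 9.63, 8.26 and 9.18 CPM in WT and 8.80, 10.2 and 11.2 CPM in KO. Here KO replicates 2 and 3 were above all of WT. Its log2 fold change was 0.15 (SE 0.14, 95% interval -0.17 to 0.48, adjusted p = 0.499 in edgeR).

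*Igtp* and *Irgm2* are neighbours whose annotated exons overlap by 162 bases on the same strand, and 16.4% of the 31-base words of *Igtp* occur in *Irgm2*. Their counts could therefore be divided between them. The sum of both was 18.0 ± 1.08 CPM in WT and 18.1 ± 2.15 CPM in KO (mean and SD of 3), a ratio of 1.00.

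Of the effector IRGs, *Ifi47* was the most abundant member per length. It was at 11.7, 11.8 and 13.2 CPM in WT and 12.7, 15.6 and 12.7 CPM in KO. KO replicate 2 was above the other 5 libraries, which shared a range. The log2 fold change was 0.16 (SE 0.13, 95% interval -0.15 to 0.47, adjusted p = 0.455 in edgeR) and 0.047 with GC correction. The annotated exons of *Ifi47* overlap 111 bases of *Olfr56*, an olfactory receptor gene on the same strand.

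*Tgtp2*, an effector that is loaded onto parasite vacuoles, was at 1.25, 2.35 and 1.47 CPM in WT and 1.41, 1.78 and 1.88 CPM in KO. WT held both the lowest and the highest library. Its log2 fold change was 0.0066 (SE 0.29, 95% interval -0.65 to 0.66, adjusted p = 0.989 in edgeR), and the sign turned with the scaling, to -0.0089 with library size alone and -0.18 with GC correction. Since 93.3% of the 31-base words of *Tgtp2* occur in *Tgtp1*, the reads of both could not be separated with certainty, and their sum was 1.73 ± 0.554 CPM in WT and 1.78 ± 0.109 CPM in KO (SD, n = 3 each).

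*Iigp1*, the effector known as Irga6, was at the limit of detection. WT replicates 1, 2 and 3 held 3, 4 and 1 of its reads and the KO libraries 2, 0 and 2, from a gene at chr18:60376027-60392634 (GRCm38). Only WT replicate 2 was above 3 counts, so no fold change is given. A difference in *Iigp1* was not detectable at this depth.

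**Figure D2:**
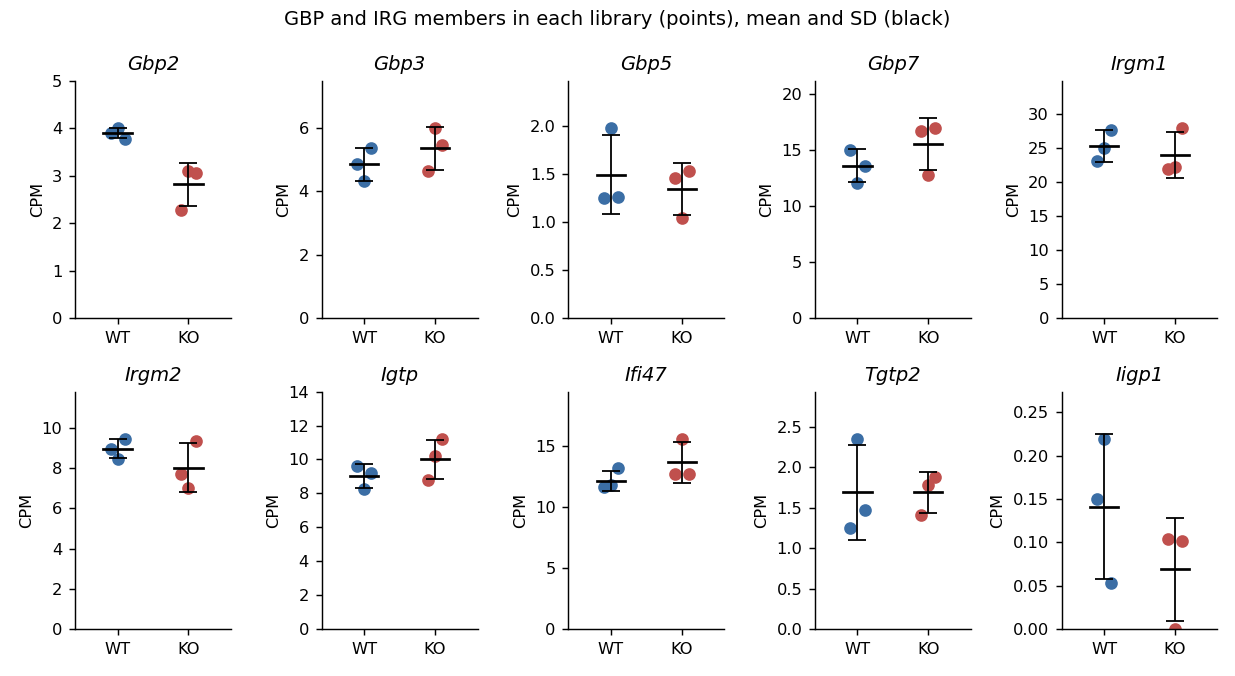
Level of each of the 10 members in CPM (vertical axes, each from 0) in the WT and KO libraries, with 1 point per library and the mean and SD in black (n = 3 each). Points of *Gbp2* separate by genotype, 3.78 to 4.0 CPM in WT and 2.29 to 3.11 in KO, and those of the other members overlap.

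Levels of different members were compared per length, as CPM per kb of the longest annotated transcript. In WT, *Ifi47* came first at 6.90 ± 0.464 CPM per kb, followed by *Irgm1* at 6.60 ± 0.602, *Igtp* at 4.46 ± 0.344, *Irgm2* at 2.54 ± 0.137, *Gbp7* at 2.42 ± 0.263, *Gbp3* at 1.81 ± 0.192, *Gbp2* at 1.55 ± 0.0434, *Tgtp2* at 0.602 ± 0.207, *Gbp5* at 0.398 ± 0.110 and *Iigp1* at 0.0451 ± 0.0268 (SD, n = 3). The libraries of *Ifi47* and *Irgm1*, of *Irgm2* and *Gbp7*, and of *Tgtp2* and *Gbp5* overlapped, so the order within these pairs is not set. In KO the order differed in 1 place, with *Gbp7* at 2.75 ± 0.416 before *Irgm2* at 2.28 ± 0.343, and these overlapped as well, as did *Irgm2* and *Gbp3* in KO. The 3 most abundant members per length were thus IRGs in both genotypes.

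The order of the KO libraries was counted over the 9 members tested, and the same count over all genes was not made. KO replicate 3 was the highest KO library for 6 of these members and the lowest for 0, whereas KO replicate 1 was the lowest for 6 and the highest for 0. KO replicate 2 was the highest for 3 and the lowest for 3. The part of GC content, 41.7% to 49.5% in these members, in that order was not tested. WT replicates 1, 2 and 3 were the highest WT library for 2, 3 and 4 members. KO replicate 3 also had the highest share of mitochondrial counts, 3.32%, against 1.78% and 2.12% in KO replicates 1 and 2 and 1.00% to 1.53% in WT. This share was thus higher in every KO library than in any WT library. The part of these differences in the members' levels was not tested.

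The relatives of the members, 21 rows of other GBP, IRG-like, GVIN and MX genes, were mostly lower in KO by their fitted values. Of the 14 tested, 0 were called by edgeR or limma-voom, and 11 were lower and 3 higher in KO, with a median log2 fold change of -0.30. At an unadjusted p under 0.05, 6 were lower and 0 higher, where 13.2% of all genes tested were lower. The libraries of 6 relatives did not overlap, all with KO lower, against 18.8% of all genes. Among these 6 are *9930111J21Rik1* with *9930111J21Rik2*, and *Gvin1* with *Gvin2*, which share sequence, so the 6 are not independent. DESeq2 called 1 of the 14, where it called 0.961% of the genes it tested. Whether the relatives differ from the members was not tested.

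The IRG-like row *9930111J21Rik1*, in the *Tgtp2* cluster of chromosome 11, was that call. It was at 11.1, 14.9 and 13.1 CPM in WT and 8.33, 4.49 and 3.82 CPM in KO, and every KO library was below every WT library. Its log2 fold change was -1.23 (SE 0.27), with an adjusted p of 0.147 in edgeR and 0.00241 in DESeq2. Of its 31-base words, 82.4% occur in its neighbour *9930111J21Rik2*, which was at 44.7, 39.8 and 43.0 CPM in WT and 37.4, 29.7 and 35.9 CPM in KO (log2 fold change -0.31, adjusted p = 0.161 in edgeR). Summed with *Gm5431*, which shares sequence with both, these rows were at 58.5 ± 0.504 CPM in WT and 42.2 ± 6.05 CPM in KO (SD, n = 3 each), 0.721 of WT.

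The GVIN genes *Gvin1* and *Gvin2* encode very large GTPases of the same superfamily with no settled function, and *Gvin3* is annotated as an unprocessed pseudogene. *Gvin1* was at 38.8, 33.8 and 38.7 CPM in WT and 24.8, 22.8 and 31.2 CPM in KO, with every KO library below WT (log2 fold change -0.50, SE 0.14, adjusted p = 0.147 in edgeR). *Gvin2* and *Gvin3* had log2 fold changes of -0.30 and -0.38, also without overlap, but 98.9% of the 31-base words of *Gvin2* occur in *Gvin1*. The sum of the 3 rows was 79.0 ± 6.32 CPM in WT and 60.0 ± 5.27 CPM in KO (SD, n = 3 each). *Gm4070*, which holds 99.0% of the 31-base words of *Gvin1*, was not in this sum.

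Among the other GBPs, on chromosome 5, *Gbp6* was at 1.76, 1.97 and 1.78 CPM in WT and 1.09, 1.15 and 1.12 CPM in KO, also without overlap (log2 fold change -0.71, SE 0.22, adjusted p = 0.147 in edgeR). These came from 20 to 36.11 estimated counts per library, and its exons overlap those of *Gm43302* by 1726 bases on the same strand. Summed with *Gbp10* and *Gm43302*, the level was 1.87 ± 0.138 CPM in WT and 1.22 ± 0.143 CPM in KO (SD, n = 3 each). *Gbp4*, *Gbp9* and *Gbp8* had log2 fold changes of -0.15, -0.27 and 0.33, and their genotypes overlapped. The IRG rows *Gm12250*, the gene of Irgb10, and *Irgq* had -0.53 and -0.28, and *Gm5431* had -0.34. *Mx1* and *Mx2*, the latter annotated as a polymorphic pseudogene, had 0.0043 and 0.13. The 7 rows that did not pass the filter, among them *Tgtp1*, *Gbp10* and *Gbp11*, did not exceed 0.288 CPM in any library, and *Gbp2b* was at 0 in all 6.

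With GC correction, 12 of the 14 relatives tested were lower in KO and 8 of them had an unadjusted p under 0.05, against 13.6% of all genes lower at that p in the same fit, with a median log2 fold change of -0.49. DESeq2 with GC correction called 4 relatives and 0 members, where 3.22% of the genes it tested were called. It gave an adjusted p to 7 of the relatives and 6 of the members, and none to *Gbp2*, *Gbp5* or *Tgtp2*, which could therefore not be called.

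**Figure D3:**
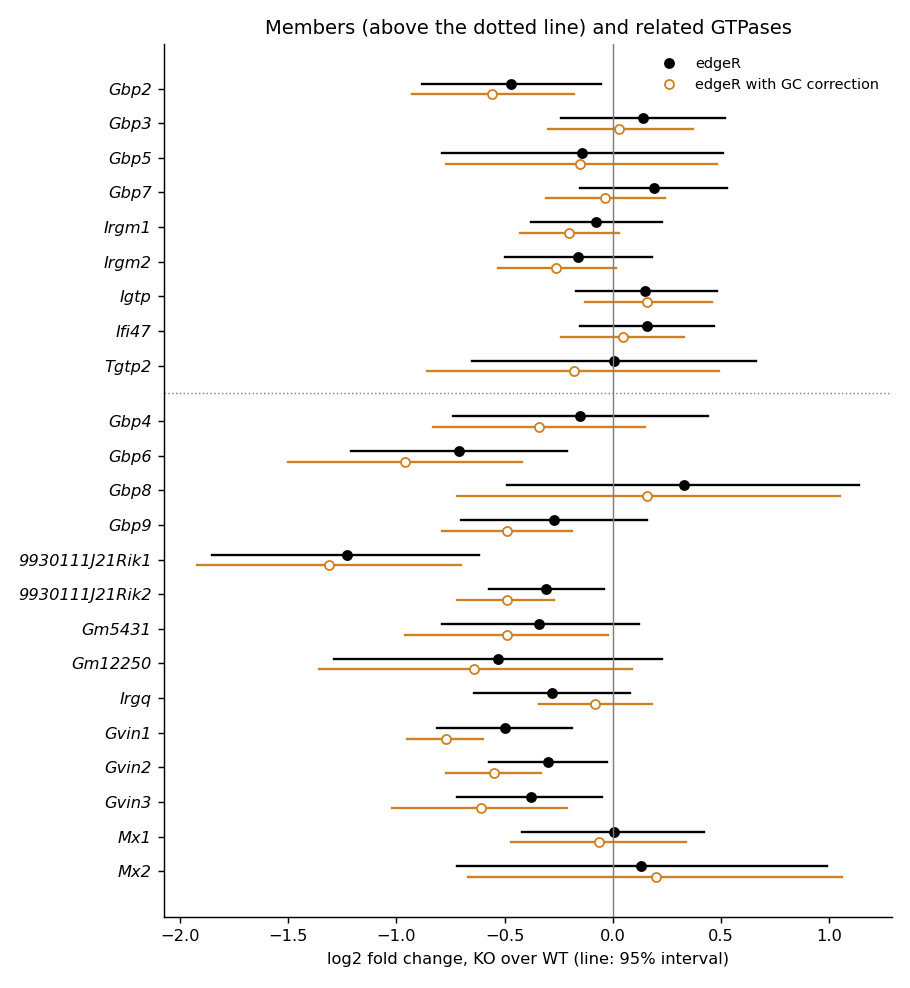
Log2 fold change of KO over WT (horizontal axis) for the 9 members and 14 relatives tested, with 95% intervals, from edgeR (black, filled) and from edgeR with GC correction (orange, open). The interval of *Gbp2* lies below 0 with both, at -0.88 to -0.052 without correction, those of the other members include 0, and *9930111J21Rik1* stands lowest at -1.23.

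The genes that carry interferon signals to the members fell into lists of the type II and the type I route, neither of which held a gene called by edgeR or limma-voom. *Ifng* and *Ifnb1*, the genes of interferon gamma and interferon beta, were at 0 counts in all 6 libraries, which allows up to 3 counts in each. Of 8 type II genes tested, 2 were higher and 6 lower in KO, with a median log2 fold change of -0.12, and 1 was under an unadjusted p of 0.05 with KO lower, or 3 with GC correction, where all genes gave 13.2% and 13.6%. DESeq2 called 0 of them and 0.961% of all genes. *Irf1*, the factor that carries much of the interferon gamma response, had overlapping genotypes and a log2 fold change of -0.11 (SE 0.13, adjusted p = 0.611 in edgeR) that turned to 0.0093 with GC correction. *Irf8*, a myeloid interferon regulatory factor that restrains osteoclast formation, was at 80.6, 92.4 and 78.6 CPM in WT and 65.7, 68.2 and 51.1 CPM in KO (log2 fold change -0.44, SE 0.13, adjusted p = 0.147 in edgeR).

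In the type I route, 6 of 7 genes tested were lower in KO, all 6 without overlap between genotypes and with an unadjusted p under 0.05, where 18.8% and 13.2% of all genes tested were so with KO lower. The libraries of the other gene, the receptor chain *Ifnar2*, did not overlap either, with KO higher and a log2 fold change of 0.07 (SE 0.08, adjusted p = 0.603 in edgeR). The median of the list was -0.46, and -0.29 with GC correction. *Irf7*, the amplifier of the type I response, was at 16.4, 16.9 and 17.8 CPM in WT and 7.81, 8.97 and 7.74 CPM in KO. Each KO library held less than any WT library, with a log2 fold change of -1.06 (SE 0.12) and an adjusted p of 0.0635 in edgeR and 5.27e-08 in DESeq2, which made it the single call of DESeq2 in this list. With GC correction it was -0.87. *Stat2* had a log2 fold change of -0.46 (SE 0.12, adjusted p = 0.147 in edgeR) and *Irf9* -0.33 (SE 0.11, adjusted p = 0.151 in edgeR). Both encode factors that act at the ISRE.

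Other targets of the same routes were set beside the members. Of 22 targets of type I interferon that were tested, all 22 were lower in KO, 12 with an unadjusted p under 0.05 and 14 without overlap, beside the same 13.2% and 18.8% of all genes, and their median log2 fold change was -0.50, whereas that of the members was 0.0066. With GC correction 21 of the 22 were lower, and without KO replicate 2 also 21. DESeq2 called 5 of them, and 0.961% of all genes. *Oasl2*, an antiviral gene of the oligoadenylate synthetase family, was lowest, at 18.2, 18.0 and 20.6 CPM in WT and 8.38, 10.6 and 9.27 CPM in KO (log2 fold change -1.01, SE 0.13, adjusted p = 0.0805 in edgeR and 1.36e-06 in DESeq2). None had an unadjusted p under 0.05 with KO higher. The difference between this list and the members was not tested.

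Of 16 interferon gamma targets tested, 5 were higher and 11 lower in KO, with a median log2 fold change of -0.12 that was 0.0025 with GC correction. At an unadjusted p under 0.05, 2 were higher and 2 lower, and with GC correction 5 and 2, where 13.0% of all genes tested were higher and 13.2% lower without correction. *H2-Aa*, an MHC class II chain, was at 74.8, 62.6 and 60.2 CPM in WT and 86.4, 86.3 and 89.4 CPM in KO (log2 fold change 0.41, SE 0.11, adjusted p = 0.147 in edgeR). The lowest of those under that p, *Serpina3g*, a protease inhibitor of activated macrophages, had a log2 fold change of -0.83 (SE 0.36, adjusted p = 0.185 in edgeR). *Nlrc5*, the activator of MHC class I genes, had -0.68 (SE 0.14) with an adjusted p of 0.141 in edgeR and 0.00304 in DESeq2, the single gene of the list that DESeq2 called.

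**Figure D4:**
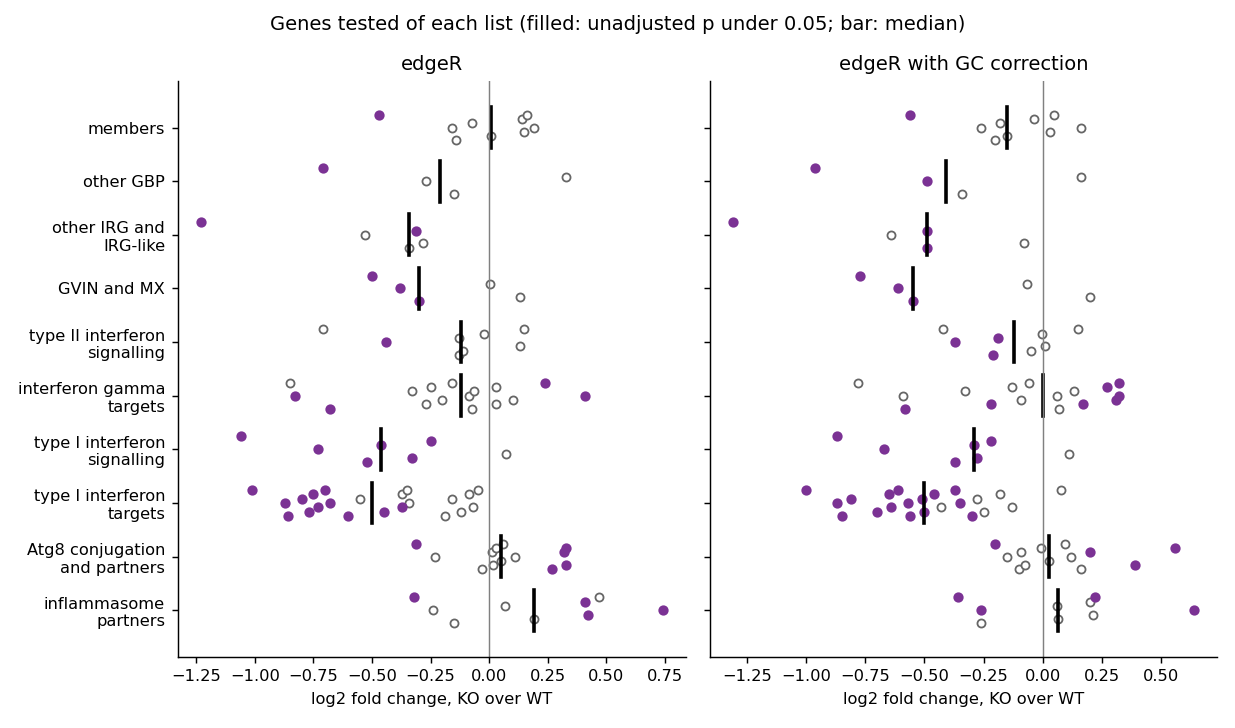
Log2 fold change of KO over WT (horizontal axes) for each gene tested of the members and of 9 other lists, from edgeR (left) and from edgeR with GC correction (right). Each point is a gene, filled at an unadjusted p under 0.05, and the bar is the median of the list. The members center on 0.0066 without and -0.15 with correction, and the type I interferon targets on -0.50 in both.

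The proteins that place GBPs and IRGs on membranes, and those that act after them, were given by 2 further lists. GBP and IRG loading depends on the Atg8 conjugation machinery. Of 13 genes of that machinery and its partners, 10 were higher and 3 lower in KO, and with GC correction 7 were higher and 6 lower. None was called by edgeR, DESeq2 or limma-voom, and at an unadjusted p under 0.05, 4 were higher and 1 lower, or 3 and 1 with GC correction, beside 13.0% and 13.2% of all genes without it. *Gabarap*, an Atg8 protein, was at 309, 258 and 310 CPM in WT and 314, 372 and 416 CPM in KO (log2 fold change 0.33, SE 0.13, adjusted p = 0.162 in edgeR). *Atg7*, the enzyme that activates Atg8 proteins, had -0.31 (SE 0.12, adjusted p = 0.164 in edgeR).

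Of 9 inflammasome partners, 6 were higher and 3 lower in KO, 0 were called by edgeR, DESeq2 or limma-voom, and at an unadjusted p under 0.05, 3 were higher and 1 lower, or 2 and 2 with GC correction, against the same shares of all genes. *Il1b*, the gene of the cytokine that inflammasomes mature, was at 5.22, 5.14 and 5.35 CPM in WT and 7.24, 10.1 and 8.96 CPM in KO (log2 fold change 0.74, SE 0.16, adjusted p = 0.147 in edgeR). *Nlrp3*, the sensor that Gbp5 acts on, was at 80.0, 96.2 and 84.8 CPM in WT and 71.1, 68.9 and 69.1 CPM in KO (log2 fold change -0.32, SE 0.10, adjusted p = 0.147 in edgeR). Neutrophils carry *Il1b*, and the neutrophil marker sum given above was also higher in KO, with 6 of its 10 tested genes higher and 1 lower at an unadjusted p under 0.05. Its part in the level of *Il1b* was not tested.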

How the data were processed

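Poly(A) RNA was sequenced with Illumina Stranded mRNA Prep from 3 WT and 3 KO libraries, which were grouped by the genotype in their labels. The authors deposited 1 table of estimated counts per gene without normalization, with 17757351 to 19998611 counts per library, and part of the values were not whole. The submitters' processing notes name fastp, HISAT2, StringTie, RSEM and GRCm39, and their versions are not given in the sources used here. The authors' means per genotype were not used. Estimated counts divide reads between similar genes, so rows that share sequence were also summed.

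Estimated counts were rounded to whole numbers. In R 4.3.3, edgeR 4.0.16 was used with filterByExpr, TMM, glmQLFit (legacy = FALSE) and glmQLFTest across all 13428 genes that passed, with Benjamini-Hochberg adjustment. CPM are per TMM-scaled library. Limits were an adjusted p under 0.01 and a fold change above 1.3. The GC correction entered as offsets a spline (5 degrees of freedom) of each library's deviation on transcript GC content. DESeq2 1.42.0, limma 3.58.1 (voom), other scalings and filters, the replicate number as a block and each library left out were alternatives. Leaving out the ribosomal RNA rows was chosen after seeing the data. The fits were tested on simulated data. The floor of 3 counts covers counting error only, and the 95% intervals of fold changes come from the fitted spread between libraries.

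The members and gene lists were chosen with earlier results of these data known. The text names all 10 members, every tested relative, and of each pathway list the largest rise and the largest fall under an unadjusted p of 0.05, beside *Ifng*, *Ifnb1*, *Stat2*, *Irf1*, *Irf7*, *Irf8* and *Irf9*. Another gene of this rule is not reported here. *Nlrc5*, *Ifnar2* and *Gm12185* were named after their values were seen. Positions, exon overlaps, transcript lengths, GC content and shared 31-base words come from GENCODE M21 on GRCm38, which holds a transcript for 51884 of the 57180 identifiers, and promoters from the RefSeq table on GRCm38.p6, so coordinates are not in the build of the counts.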

Additional observations from a re-analysis of the deposited data

How the results depend on the processing

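No member passed the limits under any of the 19 alternatives, which included an adjusted p under 0.05, leaving out the low-count filter, requiring 10 counts in each library, DESeq2, limma-voom, both GC corrections and each library left out. With GC correction and DESeq2, *Gbp2*, *Gbp5* and *Tgtp2* received no adjusted p and so could not pass. The lowest adjusted p of a member was 0.0986, for *Gbp2* with GC correction. The number of all genes past the limits was 1, and it was 129 with DESeq2 (60 higher and 69 lower), 3 with GC correction, 340 with GC correction and DESeq2 (175 higher and 165 lower), and 0 to 2 when a library was left out, with 0 without WT replicate 2, WT replicate 3 or KO replicate 2 and 2 without KO replicate 1. DESeq2 and edgeR differ in how they treat the spread, and the cause of the difference was not tested. The median log2 fold change of the members was 0.0066, and it was -0.15 with GC correction and -0.15 with GC correction and DESeq2. With a library left out it ran from -0.14 to 0.13.

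*Gbp2* was lower in KO, and *Igtp*, *Gbp3* and *Ifi47* higher, under all alternatives, whereas 3 members turned. *Gbp7* was -0.038 with GC correction, -0.038 with GC correction and DESeq2 and -0.045 with GC correction and the replicate block. *Tgtp2* was -0.0089 with library size alone, -0.0039 without a filter on low counts, -0.18 with GC correction, -0.20 with GC correction and DESeq2, -0.16 with GC correction and the replicate block, and -0.17 to 0.31 with a library left out. *Gbp5* ran from -0.26 to 0.10 with a library left out. *Irgm1* and *Irgm2* were negative throughout, from -0.20 to -0.0056 and from -0.28 to -0.071. *Gbp3*, *Ifi47* and *Igtp* ran from 0.027 to 0.24, from 0.039 to 0.22 and from 0.07 to 0.24. The other 148 of 162 values kept their direction and their side of the limits.

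The deviations of same-numbered WT and KO libraries correlated at r = -0.46, 0.181 and 0.377 for replicates 1, 2 and 3, and those of WT replicates 1 and 2 correlated best with another number (0.407 with KO replicate 3 and 0.534 with KO replicate 1), so the numbers were not taken to pair them. With the replicate block, 1 gene in all and 0 members passed, and the lowest adjusted p of a member was 0.188. Depth limited *Iigp1*, *Gbp5* and *Tgtp2* most, with under 50 counts in every library, and 3 libraries per genotype leave 95% intervals that, without GC correction, reach beyond a 1.3-fold difference for all members tested except *Irgm1*.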
